A study of Mus musculus with 28 samples.

Results

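Cells labelled through Aspm were compared with the total interfollicular epidermis (IFE, the skin surface between the hair follicles) of the same mouse line, in back and in tail skin. The comparison takes every library of that line, 10 of the 28 in the series. Back skin gives 3 labelled and 3 total libraries, numbered 1, 2 and 4, and tail skin gives 2 of each, numbered 1 and 2. All 10 carry the genotype WT(AspmCreER x RosatdTomato), in which a tamoxifen-inducible Cre recombinase under the name Aspm acts on a tdTomato reporter at the Rosa locus. Mice received tamoxifen (100 ug/ml) on 5 days, at postnatal days 30 to 34, and the skin was collected at postnatal day 49, 2 weeks after labelling, in telogen, when the hair cycle rests. The labelled libraries are given as Aspm+ IFE cells of back or tail skin and the others as total IFE cells, so the total also received tamoxifen and may hold labelled cells. The labels do not say whether animals were pooled or whether each library stands for its own animal. The p-values therefore cover only the spread among these libraries, which may be technical. The other 18 libraries, from the lines named Slc1a3 (10), K14 (4) and Dlx1 (4), served for comparisons of the effect.

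Aspm is a protein of the spindle poles that is made while cells divide, and its transcript rises and falls with the cell cycle. A cell that expressed Aspm during the days of tamoxifen keeps the reporter, as do its daughters, so the label marks a history of division in a cell or its ancestors rather than division at harvest. In the epidermis cells divide in the basal layer, which makes Krt5 and Krt14, and then move up into the spinous and granular layers, which make Krt1 and Krt10. Hair follicles open into the same sheet and hold their own stem cells, in the bulge and the germ below it.

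Levels are CPM, read counts relative to the effective size of each library. Library totals ran from 15430860 to 35604425 counts, and the correlation across genes, which are not independent replicates, was r = 0.959 to 0.978 within a group. Back and tail parted on the first principal component (62.1% of the variance). Same-numbered labelled and total libraries deviated together from their group means, and each such pair was given its own term in the model. The labelled-over-total effect was estimated once for all 5 pairs (the shared effect) and once for each site. Adjusted p-values come from edgeR's quasi-likelihood test with Benjamini-Hochberg adjustment over 16061 genes, and genes under 0.05 passed. The kit does not keep the strand, so reads of overlapping genes cannot be told apart. Among genes named below this touches Mki67, Ccn2, Timp2, Ltbp1, Fst, Tnc, Serpinb7, Krt10, Axin2, Runx1, Lrig1, Arhgap44, Col4a1, Col4a2, Stra6 and Cacna2d2, each of which overlaps another annotated gene with counts. In bulk RNA, fewer cells of a type and less RNA per cell cannot be told apart.

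Aspm itself did not pass 2 weeks after labelling, and its pairs pointed both ways. Aspm (ENSMUSG00000033952, GRCm38 chromosome 1, 139454772 to 139494091) measured 11.3, 20.4 and 18.2 CPM in back labelled libraries 1, 2 and 4, beside 7.80, 20.7 and 15.7 in their totals. In tail it measured 17.8 and 18.6 CPM in labelled libraries 1 and 2, beside 20.6 and 23.5 in their totals. The labelled library was higher in back pairs 1 and 4 and lower in the other pairs, and the shared log2 value was 0.02 (SE 0.13, adjusted p = 0.987), or -0.02 with library totals as the only scaling. A two-sided exact sign-flip permutation test over the 5 pairs gave p = 0.9375, where the smallest possible value is 0.06.

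Mki67, the Ki-67 protein of cycling cells, was higher in all 3 back labelled libraries and not in tail. Mki67 (ENSMUSG00000031004, chromosome 7, 135689784 to 135716361) measured 45.2, 194 and 96.0 CPM in back labelled libraries 1, 2 and 4, beside 25.0, 127 and 72.1 in their totals. In tail labelled libraries 1 and 2 it measured 85.2 and 91.4 CPM, beside 95.3 and 91.5. The level differed more between back pairs than within them, so the back groups overlap although each pair points the same way. The back effect passed at log2 0.62 (SE 0.10, adjusted p = 0.0179) and the tail effect did not, at -0.08 (SE 0.12, adjusted p = 0.944). The back call was lost without back pair 2 (adjusted p = 0.288) and in the fit of all 28 libraries (adjusted p = 0.511). The difference between the sites did not pass (log2 -0.70, adjusted p = 0.202), nor did the shared effect (0.34, adjusted p = 0.409, exact sign-flip p = 0.25).

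Of the other checks, the reporter locus Gt(ROSA)26Sor was higher in every labelled library than in its total, at 15.3 to 42.6 CPM beside 11.1 to 17.6. That difference did not pass (shared log2 0.67, adjusted p = 0.175), and the gene overlaps Thumpd3. Krt14, a basal keratin, measured 11190 to 16630 CPM in back labelled and 10950 to 14310 in back total libraries, and 37460 and 39040 beside 31690 and 32050 in tail (shared log2 0.18, adjusted p = 0.411). The marker of basal keratinocytes was thus high in all 10 libraries. Krt10, of the spinous layer, was higher in the labelled library of each pair and did not pass (log2 0.29, adjusted p = 0.0758).

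**Figure D1:**
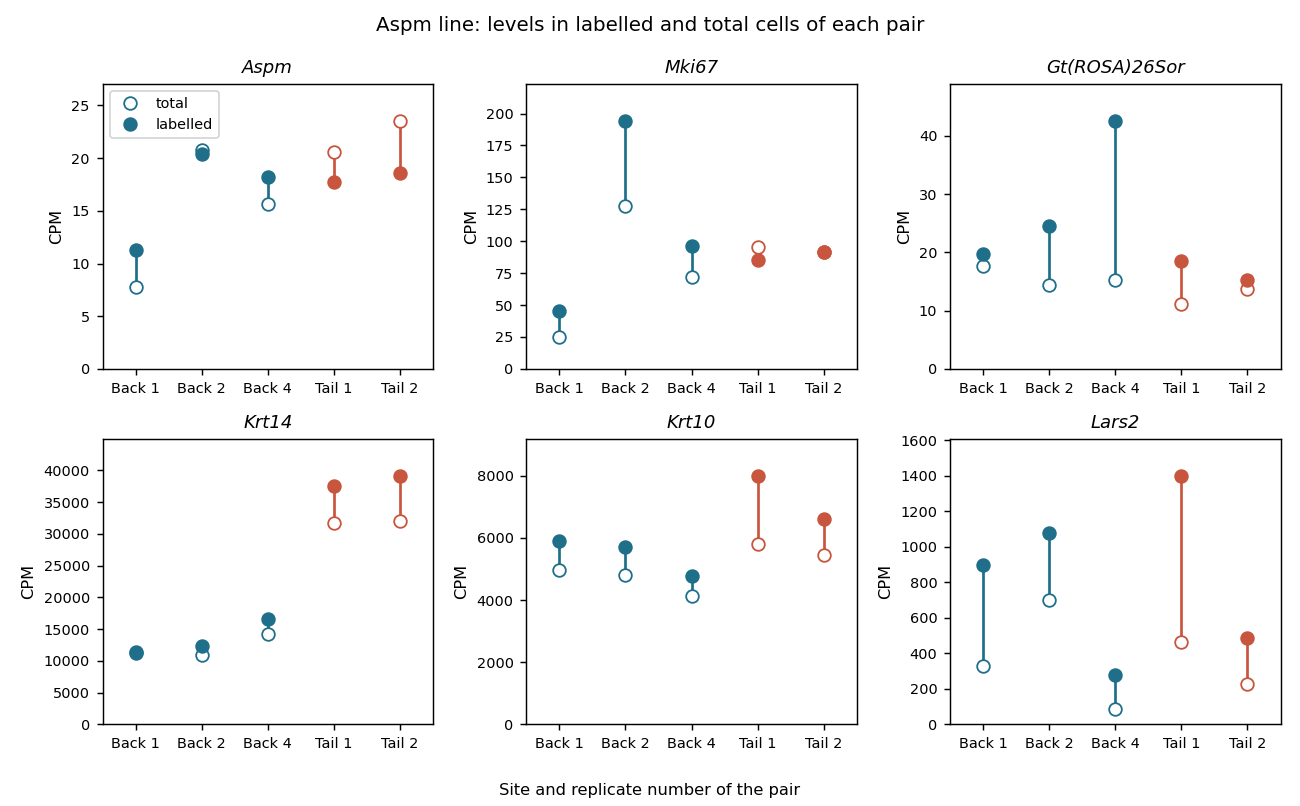
Levels of 6 genes in CPM (vertical axes, linear from 0) for the 5 pairs (horizontal axes, site and replicate number), with filled points for labelled and open points for total libraries and a line joining each pair. Mki67 was higher in the labelled library in the 3 back pairs and not in tail, whereas Lars2 was higher in the labelled library of all 5 pairs.

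Most genes that passed in the shared effect were lower in labelled cells. Of 16061 genes, 46 passed (0.286%), 40 of them lower (0.249%) and 6 higher (0.0374%). Over all genes the shared log2 values were balanced, 8034 above and 8027 below 0. Without back pair 1, however, 295 genes passed and the directions were nearly even, 150 lower and 145 higher. For each of the 46, all 5 pairs pointed the same way, as did 848 of all genes tested toward lower (5.28%) and 654 toward higher (4.07%). The 40 lower genes changed by 0.31 to 2.93 in size on the log2 scale, with a median of 0.62. Of the 46, 8 also passed in back by itself, 5 in tail by itself and 35 in neither. With each of the 5 pairs left out in turn, 7 of the 46 passed every time, namely Sox9, Ccn2, Fst, Timp2, Sostdc1 and Fzd7, all lower, and the predicted gene Gm15564, higher. Without the pair terms 0 genes passed, with 475 at an unadjusted p under 0.05, whereas DESeq2 with the pair terms called 139 and limma-voom 74.

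**Figure D2:**
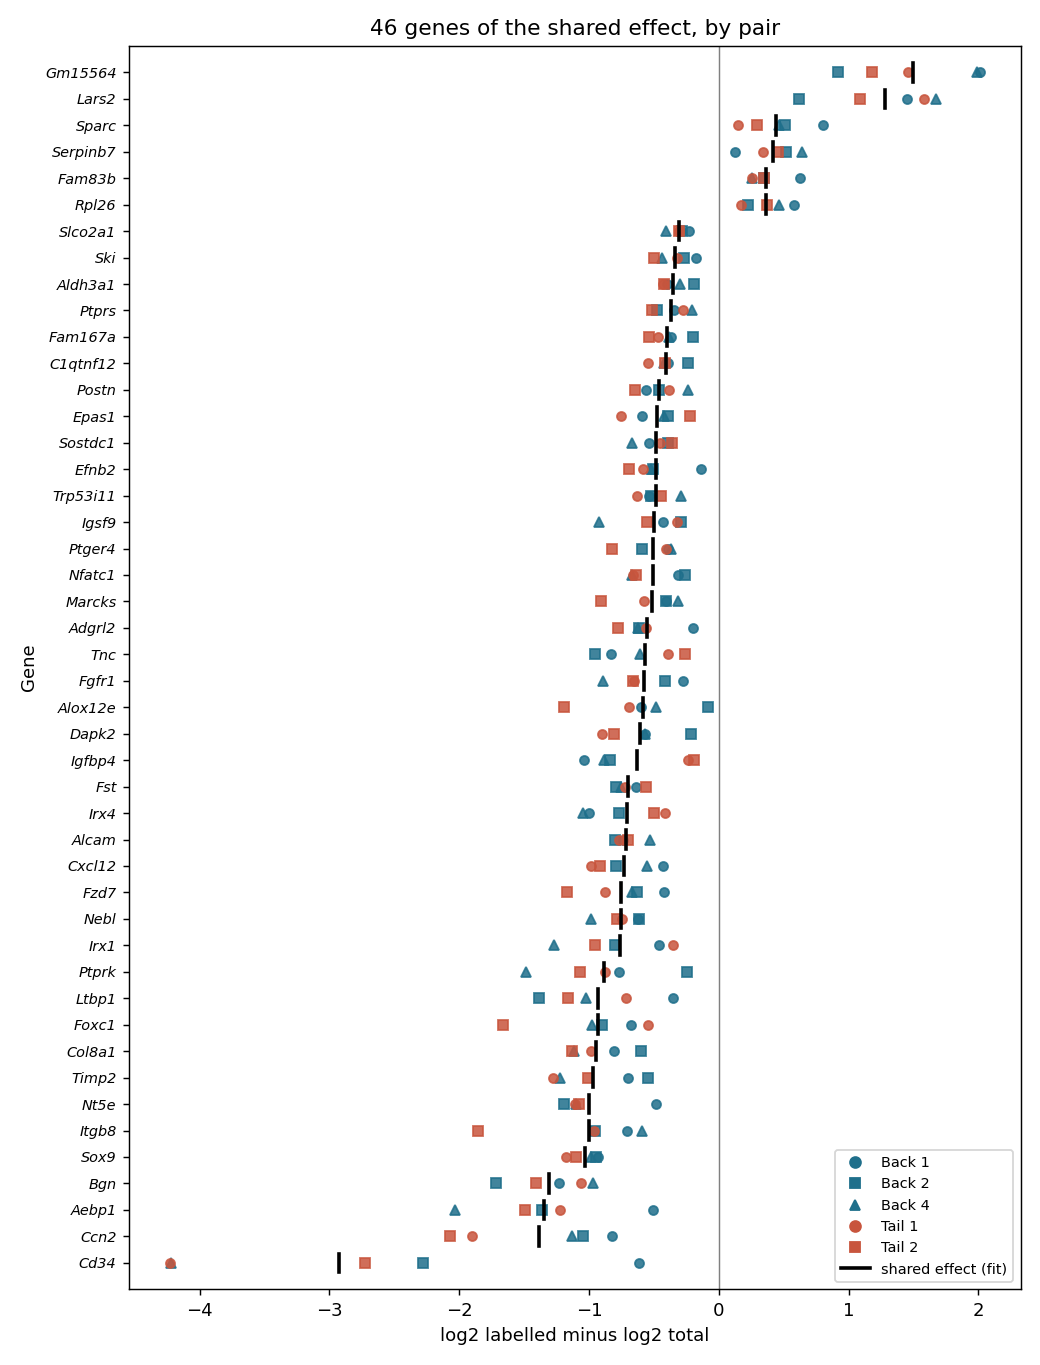
The 46 genes that passed in the shared effect (vertical axis), with the log2 labelled minus log2 total value of each pair (horizontal axis, points, blue for back and red for tail) and the fitted shared effect (black bars). All points of the 40 lower genes lie left of 0 and all points of the 6 higher genes right of it.

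Follicle genes of the bulge and germ were lower in labelled cells. Of the 19 members tested on a list of 20, 6 fell and 0 rose in the shared effect, 17 had a log2 value below 0, and the median was -0.48, beside 0.00 over all genes. The 6 that fell are Sox9, Fst, Sostdc1, Postn, Nfatc1 and Cd34. By site the median was -0.19 in back, where Sox9, Fst and Sostdc1 fell, and -0.65 in tail, where Sox9 and Grem1 fell.

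Sox9, a transcription factor of follicle stem cells, had the smallest adjusted p of the shared effect. Sox9 (ENSMUSG00000000567, chromosome 11, 112782224 to 112787760) measured 18.7, 12.8 and 11.8 CPM in back labelled libraries 1, 2 and 4, beside 35.7, 24.8 and 23.4 in their totals. In tail it measured 23.8 and 17.4 CPM, beside 53.7 and 37.2. Every labelled library of a site lay below every total library of that site. Sox9 fell by 1.03 on the log2 scale (SE 0.09, adjusted p = 4.7e-04), with 0.96 in back and 1.14 in tail in size, both past the threshold (adjusted p = 0.0053 and 0.0049).

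Fst and Sostdc1 encode secreted proteins, follistatin, which binds activin, and sclerostin domain containing 1, which acts on BMP and Wnt signalling. Fst (ENSMUSG00000021765, chromosome 13, 114452290 to 114458951) measured 42.1, 22 and 40.7 CPM in back labelled libraries, beside 65.5, 38.2 and 68.7 in their totals, and 8.40 and 8.18 beside 13.9 and 12.1 in tail. It fell by 0.70 on the log2 scale (SE 0.09, adjusted p = 0.0058), and back levels were several times those in tail in both fractions. Sostdc1 (ENSMUSG00000036169, chromosome 12, 36314139 to 36318452) measured 176, 129 and 145 CPM in back labelled libraries, beside 256, 169 and 231, and 194 and 179.9 beside 265 and 231 in tail. It fell by 0.48 (SE 0.06, adjusted p = 0.0058), and the back labelled library 1 lay above the back total library 2, so that its back groups overlap while each pair is lower.

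Cd34, a surface protein used to sort bulge cells and also made by blood vessels and fibroblasts, had the lowest shared log2 value of the 46 and the lowest levels. It measured 0.615, 0.428 and 0 CPM in back labelled libraries, beside 0.988, 2.42 and 1.59 in their totals, and 0.531 and 1.49 beside 11.6 and 10.4 in tail. The pairs ranged widely, from the small difference of back pair 1 to the large one of tail pair 1. It fell by 2.93 on the log2 scale (SE 0.51, adjusted p = 0.0292), and the call was lost when back pair 2 or 4 or either tail pair was left out (adjusted p = 0.083 to 0.213). Postn, a matricellular protein, measured 197 to 553 CPM in back labelled and 270 to 653 in back total libraries (shared log2 -0.46, adjusted p = 0.0120). Nfatc1, a transcription factor of bulge quiescence, measured 19.1 to 44.7 beside 30.4 to 55.5 in back (shared log2 -0.51, adjusted p = 0.0313). Neither gene passed in a site by itself, at log2 -0.42 and -0.41 in back (adjusted p = 0.131 and 0.307). In tail the values were -0.52 and -0.65 (adjusted p = 0.083 for each).

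Other bulge genes did not pass. Krt15 is listed here both with bulge genes and with the keratins of the basal layer, so its level is not particular to bulge cells. It measured 18010 to 18560 CPM in back labelled and 16980 to 18690 in back total libraries, and 2657 and 3209 beside 3556 and 4258 in tail (shared log2 -0.15, adjusted p = 0.635). Lhx2, a bulge transcription factor, was lower in all 5 pairs, at 1.33 to 5.94 CPM beside 3.32 to 12.3 (log2 -1.33, adjusted p = 0.0740). Gli1, a target of hedgehog signalling, was lower in all 5 pairs at 0.124 to 1.23 CPM beside 1.45 to 2.91 (log2 -2.15, adjusted p = 0.165). Lgr5, of the lower bulge and germ, was lower in 3 of 5 pairs (adjusted p = 0.630).

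**Figure D3:**
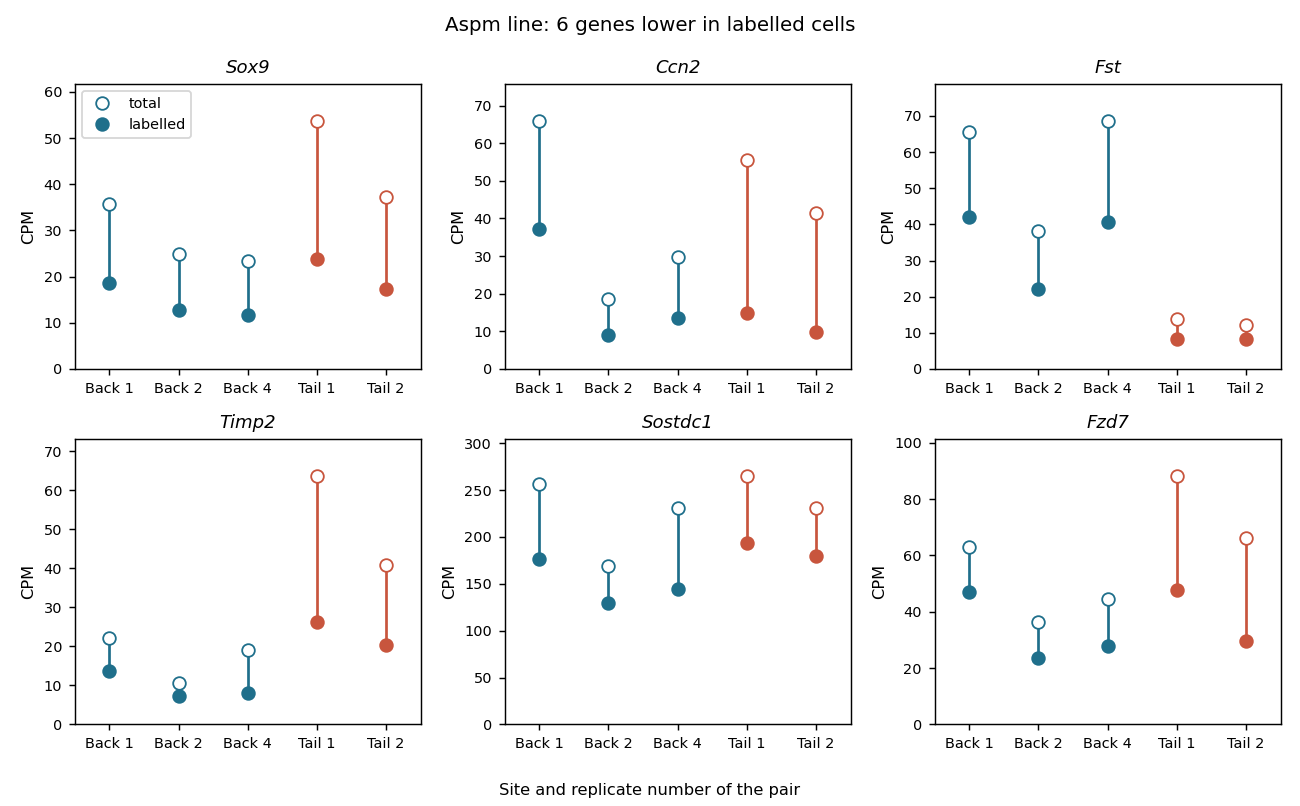
Levels in CPM (vertical axes, linear from 0) of the 6 lower genes that passed with each of the 5 pairs left out in turn, by site and replicate number of the pair (horizontal axes), with filled points for labelled and open points for total libraries. The filled point lies below the open point in all 30 pairs of points drawn.

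Secreted and matrix genes were also among the lower genes. Of 22 members tested on a list of 24 for matrix and latent TGF-beta binding, 3 fell (Ltbp1, Col8a1 and Tnc), 1 rose (Sparc), and 18 had a log2 value below 0, with a median of -0.42. Outside that list Ccn2, Timp2, Bgn and Aebp1, which act in the matrix or at its border with the cell, fell as well. The matrix list, like that of bulge and germ, was chosen with earlier results of these data known. Genes outside it were picked from those that passed, so these counts describe the genes and do not test a group.

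Ccn2, connective tissue growth factor and a target of the YAP and TEAD proteins, passed in the shared effect and in each site. Ccn2 (ENSMUSG00000019997, chromosome 10, 24595442 to 24598683) measured 37.1, 8.94 and 13.5 CPM in back labelled libraries 1, 2 and 4, beside 65.9, 18.5 and 29.8 in their totals, and 14.8 and 9.79 beside 55.6 and 41.4 in tail. The tail groups do not overlap, and the back groups do because pair 1 is high in both fractions. Ccn2 fell by 1.39 on the log2 scale (SE 0.16, adjusted p = 0.0049), by 1.0 in back (adjusted p = 0.0046) and by 1.99 in tail (adjusted p = 3.3e-05), and the difference between sites did not pass (-0.99, adjusted p = 0.139). In back the call was lost without back pair 2 (adjusted p = 0.0545).

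Timp2, an inhibitor of matrix metalloproteinases, measured 13.6, 7.22 and 8.07 CPM in back labelled libraries, beside 22.2, 10.6 and 19.0, and 26.1 and 20.3 beside 63.5 and 40.9 in tail. Timp2 (ENSMUSG00000017466, chromosome 11, 118301069 to 118355740) fell by 0.97 on the log2 scale (SE 0.12, adjusted p = 0.0058). Ltbp1, which holds latent TGF-beta in the matrix, measured 8.39 to 15.6 CPM in the labelled and 19.9 to 24.0 in the total libraries of both sites, with no overlap (log2 -0.93, adjusted p = 0.0174). Col8a1, a short-chain collagen, measured 3.25 to 6.66 beside 4.98 to 14 (log2 -0.94, adjusted p = 0.0292). Tnc, tenascin C, fell by 0.57 (adjusted p = 0.0414), and its back effect passed at -0.80 (adjusted p = 0.0179) whereas its tail effect did not at -0.32 (adjusted p = 0.518). Its difference between sites did not pass (tail minus back 0.48, adjusted p = 0.75).

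Bgn, the proteoglycan biglycan, and Aebp1, a collagen-binding protein, were low in back and higher in tail. Bgn measured 1.20 to 2.25 CPM in back labelled and 2.78 to 5.40 in back total libraries, and 7.0 and 4.65 beside 14.7 and 12.5 in tail (log2 -1.31, SE 0.20, adjusted p = 0.0163). Aebp1 measured 0.613 to 1.44 beside 2.08 to 2.94 in back and 8.06 and 4.28 beside 18.9 and 12.2 in tail (log2 -1.35, SE 0.23, adjusted p = 0.0292). Neither passed in a site by itself. Both are also made by fibroblasts. The summed level of 12 fibroblast markers, with Twist2 at 0 in all 10 libraries, was 70.0 to 167 CPM in back labelled and 56.3 to 61.1 in back total libraries, and 139 and 227 beside 201 and 255 in tail. Of its 7 tested members 0 passed, and Thy1, which T cells also make, gave most of the sum in the 2 highest labelled libraries (134 and 153 CPM). The sum for 12 markers of endothelium and mural cells, with Pdgfrb at 0, was 47.4 to 71.0 beside 52.5 to 100.1 in back and 112 and 123 beside 183 and 159 in tail. In that sum Cspg4 reached 179 CPM at its highest, and Vwf was next at 17.9. Of 6 tested members 0 passed and 5 had a shared log2 value below 0. Their median was -0.40, with -2.19 in back and -0.49 in tail. An unadjusted p under 0.05 was found for 3 in the shared effect, beside 1406 of all 16061 genes. The part of fibroblasts, endothelium and mural cells in the lower genes was not tested. Of 10 markers of Langerhans and other myeloid cells 0 passed (median 0.44), and their summed level was 144 to 191 CPM in back labelled and 152 to 197 in back total libraries. In tail the sum was 99.8 and 104 CPM beside 99.97 and 97.2. By site the median was 0.03 in back and 0.79 in tail. In tail 8 of the 10 were above 0, with 4 at an unadjusted p under 0.05, beside 1296 of all 16061 genes.

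Sparc, osteonectin, which binds collagen and calcium, rose. It measured 153, 157 and 146 CPM in back labelled libraries 1, 2 and 4, beside 87.9, 109.8 and 106 in their totals, and 580 and 655 beside 525 and 535 in tail. The groups do not overlap at either site. The shared log2 change was 0.44 (SE 0.08, adjusted p = 0.0382), with 0.59 in back, where it passed (adjusted p = 0.0138), and 0.22 in tail, where it did not (adjusted p = 0.626). The difference between sites did not pass (tail minus back -0.38, adjusted p = 0.752).

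The lower genes also held receptors, ligands and enzymes of the cell surface, for which no list was drawn up. Fzd7, a Wnt receptor (ENSMUSG00000041075, chromosome 1, 59482424 to 59486955), measured 46.9, 23.6 and 27.9 CPM in back labelled libraries, beside 62.9, 36.5 and 44.4, and 47.8 and 29.4 beside 88.0 and 66.2 in tail. It fell by 0.75 on the log2 scale (SE 0.10, adjusted p = 0.0058), and by 1.02 in tail by itself (adjusted p = 0.0044). Fgfr1, a fibroblast growth factor receptor, measured 23.8 to 54.8 CPM in labelled and 39.7 to 86.1 in total libraries (log2 -0.58, adjusted p = 0.0166). Itgb8, the integrin subunit that takes part in activating latent TGF-beta, measured 3.78 to 8.15 beside 10.3 to 14.6, with no overlap (log2 -1.0, adjusted p = 0.0366). The enzyme Nt5e (CD73), which makes adenosine outside the cell, measured 4.39 to 9.68 beside 9.54 to 20.4 (log2 -1.0, adjusted p = 0.0123). Ptprk and Ptprs, receptor tyrosine phosphatases, fell by 0.89 and 0.36 (adjusted p = 0.0366 and 0.0286). Efnb2, a ligand of Eph receptors, and Cxcl12, a chemokine, fell by 0.49 and 0.73 (adjusted p = 0.0216 and 0.0286).

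Several transcription factors were also among the 40 lower genes, described here one by one and not as a tested group. Irx4, an Iroquois homeobox factor, measured 15.5, 4.54 and 5.06 CPM in back labelled libraries, beside 31.0, 7.79 and 10.6, and 96.3 and 76.1 beside 128 and 108 in tail. Irx4 levels were higher in tail than in back in both fractions, and it fell by 0.71 on the log2 scale (SE 0.10, adjusted p = 0.0120), by 0.95 in back by itself (adjusted p = 0.0046). Irx1 of the same family measured 12.0 to 31.2 CPM in labelled and 24.8 to 40.0 in total libraries (log2 -0.76, adjusted p = 0.0245). Foxc1, a forkhead factor of follicle stem cells, measured 4.34 to 22.7 beside 13.9 to 36.4 (log2 -0.93, adjusted p = 0.0238). Epas1, a hypoxia-inducible factor, and Ski, a repressor of SMAD signalling, fell by 0.48 and 0.34 (adjusted p = 0.0312 and 0.0404).

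Since these genes were called together, their promoters were read for the core motifs of TEAD (GGAATG) and of TCF and LEF (CTTTGA), on either strand of the 250 bases before each start in RefSeq (GRCm38.p6). The table held 43 starts of 34 of the 46 genes. GGAATG stood in 5 of the 43 (11.6%) and in 12.6% of all 32851 promoters, and CTTTGA in 4 (9.3%) and 13.8%. Both shares lay below those of all promoters. Examples of lower genes with a single listed start and a match are shown, and the set need not be complete. Each sequence runs from 250 bases upstream to the start, in the direction of transcription, with the match in capitals. Efnb2 (chr8:8661243-8661492, minus strand) and Ptprk (chr10:28074570-28074819, plus strand) hold the TEAD core, Ptprk on the opposite strand. Bgn (chrX:73483351-73483600, plus strand) and Cxcl12 (chr6:117168285-117168534, plus strand) hold the TCF and LEF core, Cxcl12 on the opposite strand.
Efnb2: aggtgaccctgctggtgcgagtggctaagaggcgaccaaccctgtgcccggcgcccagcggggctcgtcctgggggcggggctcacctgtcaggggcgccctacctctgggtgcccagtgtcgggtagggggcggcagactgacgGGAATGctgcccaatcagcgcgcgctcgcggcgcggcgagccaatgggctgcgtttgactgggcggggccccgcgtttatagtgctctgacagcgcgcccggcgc
Ptprk: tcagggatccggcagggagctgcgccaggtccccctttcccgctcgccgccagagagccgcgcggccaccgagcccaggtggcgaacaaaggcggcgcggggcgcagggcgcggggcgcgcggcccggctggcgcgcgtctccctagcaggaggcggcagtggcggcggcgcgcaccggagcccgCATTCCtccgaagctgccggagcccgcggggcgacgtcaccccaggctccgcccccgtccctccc
Bgn: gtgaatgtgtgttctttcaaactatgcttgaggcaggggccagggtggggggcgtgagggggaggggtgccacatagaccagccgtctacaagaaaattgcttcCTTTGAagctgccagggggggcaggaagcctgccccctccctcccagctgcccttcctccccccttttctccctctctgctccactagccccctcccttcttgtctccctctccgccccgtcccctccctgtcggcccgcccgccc
Cxcl12: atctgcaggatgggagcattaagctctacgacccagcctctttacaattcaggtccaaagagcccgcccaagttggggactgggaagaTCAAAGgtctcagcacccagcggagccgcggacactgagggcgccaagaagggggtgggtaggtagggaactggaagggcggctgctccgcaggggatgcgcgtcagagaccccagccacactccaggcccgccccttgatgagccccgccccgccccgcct
A match is a description of letters and not a bound site.

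The genes that rose were fewer and included a pair with large values. Lars2, the mitochondrial leucyl-tRNA synthetase (ENSMUSG00000035202, chromosome 9, 123366927 to 123462666), measured 899, 1078 and 278 CPM in back labelled libraries 1, 2 and 4, beside 329, 700.4 and 87.4 in their totals, and 1397 and 487 beside 466 and 229 in tail. Its level ranged over more than the effect between pairs, so the groups overlap while each pair is higher. It rose by 1.28 on the log2 scale (SE 0.13, adjusted p = 0.0058). The call was lost without back pair 1 (adjusted p = 0.0609) and in the fit of all 28 libraries (adjusted p = 0.872). The predicted gene Gm15564 followed nearly the same order of libraries, at 273, 318 and 64.7 CPM beside 67.6, 168 and 16.2 in back and 362 and 109 beside 132 and 48.3 in tail (log2 1.5, adjusted p = 0.0115). The call for Gm15564 was also lost in the fit of all 28 libraries (adjusted p = 0.79). Serpinb7, an epidermal protease inhibitor, measured 135 to 228 CPM in labelled and 107 to 146 in total libraries (log2 0.42, adjusted p = 0.0292). Rpl26, a ribosomal protein, and Fam83b, of a family that takes part in growth factor signalling, rose by 0.36 and 0.37 (adjusted p = 0.0404 and 0.0477). The share of mitochondrial counts lay between 0.992% and 2.32% over the 10 libraries, highest in back labelled library 4.

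Few members of the pathways around these genes passed. Of 29 genes of BMP, activin and TGF-beta signalling, Fst fell, 0 rose, and 25 had a log2 value below 0 (median -0.25). An unadjusted p under 0.05 was found for 9 of the 29, beside 1406 of all 16061 genes. Lower in all 5 pairs were 8 of the 29, beside 5.28% of all genes. Inhbb, an activin subunit, measured 2.61 to 17.1 CPM beside 7.16 to 24.9 (log2 -0.70, adjusted p = 0.201), and the receptors Bmpr1a and Tgfbr1 had shared log2 values of 0.10 and 0.01. Of 27 Wnt genes tested 0 passed in the shared effect (median -0.09) or in tail (median -0.22). In tail 12 of the 27 had an unadjusted p under 0.05, beside 1296 of all 16061 genes. Fzd7, which fell, is not on the Wnt list. The target gene Axin2 was lower in all 5 pairs, at 40.8 to 138 CPM beside 47.7 to 147 (log2 -0.21, adjusted p = 0.371). Of 19 immediate early genes 0 passed, 15 with a log2 value below 0 (median -0.13).

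Genes of the upper layers were on the whole slightly above 0 and none passed. Of 34 genes of spinous and granular differentiation, 23 had a log2 value above 0 and the median was 0.14. Higher in all 5 pairs were 7 of the 34, beside 4.07% of all genes. An unadjusted p under 0.05, in either direction, was found for 9 of the 34, beside 1406 of all 16061 genes. Krt1 measured 3607 to 4692 CPM in back labelled and 3073 to 3843 in back total libraries, and 2874 and 2255 beside 2266 and 1736 in tail (log2 0.28, adjusted p = 0.0774). Krt2, a keratin abundant in tail, measured 6895 and 6456 CPM beside 4944 and 5350 there, and 12.0 to 13.7 beside 7.07 to 11.2 in back (log2 0.45, adjusted p = 0.0588). By edgeR 0 of the 34 passed in the shared effect, in back or in tail.

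Of the cell cycle genes listed, only Mki67 passed, and in back. Of 30 genes of mitosis and G2, 23 had a log2 value above 0 in back (median 0.19) and 11 in tail (median -0.04), and 0 passed for the difference between sites. The summed level of the 30 genes in back was 482, 1057 and 794 CPM in labelled libraries 1, 2 and 4, beside 382, 913 and 740 in their totals. In tail it was 995 and 1131, beside 1077 and 1097. Each back pair was higher and the tail pairs pointed opposite ways. Of 22 genes of DNA replication 0 passed at either site (median 0.07 in back and 0.01 in tail).

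Fitted values of ribosomal protein genes were above 0, and none of those listed passed. All 28 cytosolic ribosomal proteins on the list had a shared log2 value above 0 and 0 passed (median 0.17), and Rpl26, which rose, is not on that list. An unadjusted p under 0.05 was found for 21 of the 28 in the shared effect, 16 in tail and 0 in back. Over all 16061 genes those counts were 1406, 1296 and 1154. The pairs were less even, with 2 of the 28 higher in all 5 pairs, beside 4.07% of all genes. The summed level of the 28 was lower in the labelled library of back pair 1 (33788 beside 35609 CPM). With library totals as the only scaling, all 28 stayed above 0 in the shared effect and in tail, and 25 in back.

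**Figure D4:**
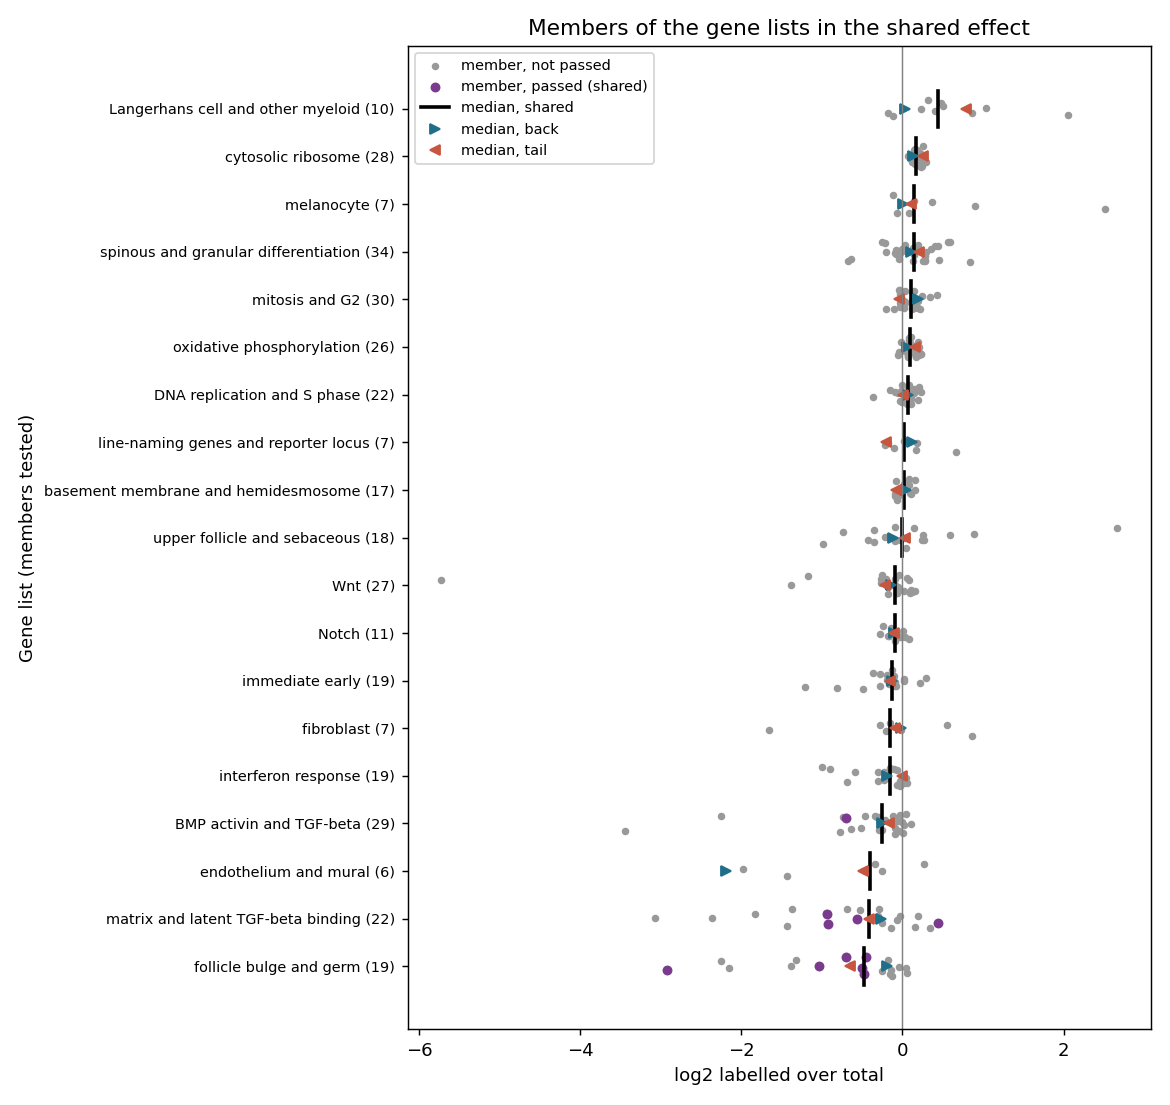
Shared log2 labelled over total (horizontal axis) of the members of each gene list with at least 5 members tested (vertical axis), purple where the member passed, with the list median for the shared effect (black bars), back (blue triangles) and tail (red triangles). The lists of follicle bulge and germ and of matrix lie furthest to the left among those with a passed member, with medians of -0.48 and -0.42.

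In back skin 14 genes passed (0.0872%), 4 higher (0.0249%) and 10 lower (0.0623%). Without back pair 2, 8 genes passed, 3 of the 14 among them (Irx4, Igfbp4 and Mettl7a3). The higher genes were Mki67, Sparc, Gsta4 and Mettl7a3. Gsta4, a glutathione transferase, measured 3.53, 8.56 and 7.0 CPM in labelled libraries 1, 2 and 4, beside 1.38, 4.34 and 3.80 (log2 1.04, SE 0.18, adjusted p = 0.0484). Its call was lost with each pair left out. Mettl7a3 belongs to a family of near-identical copies and is uncertain. It had 1.33 CPM in back labelled library 1 and at most 0.0571 in the other 5 back libraries, and did not pass without pair 1 (adjusted p = 0.745).

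The lower genes in back were Ccn2, Sox9, Fst, Sostdc1, Irx4, Igfbp4, Tnc, Sox7, Aqp1 and Cd36. Igfbp4, which binds insulin-like growth factors, had the smallest adjusted p. It measured 51.9, 18.2 and 29.1 CPM in labelled libraries, beside 107, 32.6 and 53.9 in their totals, and 93.3 and 78.4 beside 109.9 and 89.3 in tail. Back levels were high in both libraries of pair 1, so the groups overlap, and Igfbp4 fell by 0.93 in back (SE 0.10, adjusted p = 0.0010) and by 0.21 in tail, which did not pass (adjusted p = 0.688). The difference between sites did not pass (tail minus back 0.71, adjusted p = 0.158). Igfbp4 is also among the 46 genes of the shared effect (log2 -0.63, adjusted p = 0.0404). Sox7, a transcription factor, measured 12.9, 10.8 and 8.53 beside 19.9, 17.6 and 22.3 with no overlap (log2 -0.89, adjusted p = 0.0300).

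Aqp1, a water channel of vessels, and Cd36, a fatty acid transporter, rested on back total library 2. Aqp1 measured 0.102, 0.257 and 0 CPM in back labelled libraries, beside 0.670, 13.3 and 1.68 in their totals (log2 -5.14, adjusted p = 0.0179). Cd36 had 0 counts in the 3 back labelled libraries and 0.282, 2.74 and 0.309 CPM in their totals. With 3 counts set as the floor of each library, the mean of these totals lay 8.5-fold above the mean labelled floor. That ratio rests on total library 2. In pairs 1 and 4 the totals of 0.282 and 0.309 CPM stood beside labelled floors of 0.154 and 0.153 CPM. Without pair 2 neither passed (adjusted p = 0.593 and 0.351). That total library also held the most Vwf, a vessel gene, at 17.9 CPM where the other 9 libraries had at most 2.43, and the highest sum of adipocyte markers, at 12.2 CPM beside at most 1.98. The part of vessels and fat in these 2 genes was not tested.

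In tail skin 19 genes passed (0.118%), 1 higher (0.00623%) and 18 lower (0.112%). Ccn2, Sox9, Timp2, Fzd7 and Alox12e, an arachidonate lipoxygenase, were shared with the 46. The rest of the lower genes were Grem1, Runx1, Col4a1, Col4a2, Hmcn1, Arhgap44, Lrig1, Apcdd1, Adgra3, Crip1, Angptl2, Fxyd6 and Usp18. With tail pair 1 or tail pair 2 left out 3 genes passed in tail, so most of these calls need both pairs.

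Grem1, gremlin 1, a secreted BMP antagonist (ENSMUSG00000074934, chromosome 2, 113746164 to 113758646), had 0 counts in both tail labelled libraries and 6.71 and 5.42 CPM in their totals. With the same floor the mean of its totals lay 36.7-fold above the mean labelled floor, and Grem1 passed (adjusted p = 0.0038). In back it measured 1.74, 2.08 and 0.511 beside 1.24, 3.83 and 1.46 CPM and pointed both ways. Its tail call was lost with either tail pair left out (adjusted p = 0.0651 and 0.0517).

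Among the tail calls were Col4a1 and Col4a2, which encode the main chains of collagen IV and overlap each other at their starts. They measured 3.62 and 3.22 beside 12.8 and 6.28 CPM, and 4.92 and 1.98 beside 10.2 and 8.32 CPM in tail (log2 -1.44 and -1.45, adjusted p = 0.0178 and 0.0188). In back both were higher in level, at 21.2 to 88.7 CPM over the labelled libraries, and did not pass. Hmcn1, hemicentin 1, measured 0.386 and 0.992 beside 4.18 and 5.52 CPM in tail (log2 -2.87, adjusted p = 0.0038). Col4a1, Col4a2 and Hmcn1 are on the matrix list, whose tail median was -0.41. A separate list of 17 genes of basement membrane and hemidesmosome had 0 that passed in tail and a median of -0.08. Of those 17, 12 had a tail log2 value below 0. A lower fitted effect in tail than in back was seen for 16 of the 17, beside 52.8% of all genes tested.

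Runx1, a transcription factor of hair follicle cells, measured 3.09 and 0.744 CPM in tail labelled libraries, beside 11.8 and 4.47 (log2 -2.17, SE 0.31, adjusted p = 0.0073). In back it was lower in all 3 pairs, at 4.51 to 8.76 beside 7.85 to 15.4 CPM, and did not pass (adjusted p = 0.286). Lrig1, an inhibitor of EGF receptors that marks stem cells of the upper follicle, measured 78.2 and 46.2 beside 124 and 83.0 CPM in tail (log2 -0.75, adjusted p = 0.0143). Apcdd1, an inhibitor of Wnt signalling, measured 48.1 and 28.6 beside 72.8 and 55.9 CPM (log2 -0.77, adjusted p = 0.0099). The higher gene, Clca1, had 0.386 and 0.868 CPM in labelled libraries and 0 counts in both totals.

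The effect differed between tail and back for 6 genes (0.0374%), by the test of the difference itself. Grem1, Hmcn1, Adgra3, Crip1 and Mettl7a3 had the lower effect in tail, and Cd36 the higher. Crip1, a small zinc-binding LIM protein, had the smallest adjusted p and moved in opposite directions. It measured 27.7, 34.7 and 60.6 CPM in back labelled libraries, beside 19.8, 25.2 and 42.1, and 39.6 and 29.8 beside 82.7 and 52.0 in tail. The labelled library was higher in all 3 back pairs and lower in both tail pairs, with log2 effects of 0.49 in back (adjusted p = 0.142) and -0.94 in tail (adjusted p = 0.0069) and a difference of -1.43 (adjusted p = 0.0065). Adgra3, an adhesion G protein-coupled receptor, measured 205 to 299.6 beside 213 to 269 CPM in back and 21 and 19.7 beside 41.6 and 32.6 in tail (difference -0.88, adjusted p = 0.0481). With either tail pair left out 0 genes passed by edgeR, with 914 and 602 at an unadjusted p under 0.05.

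**Figure D5:**
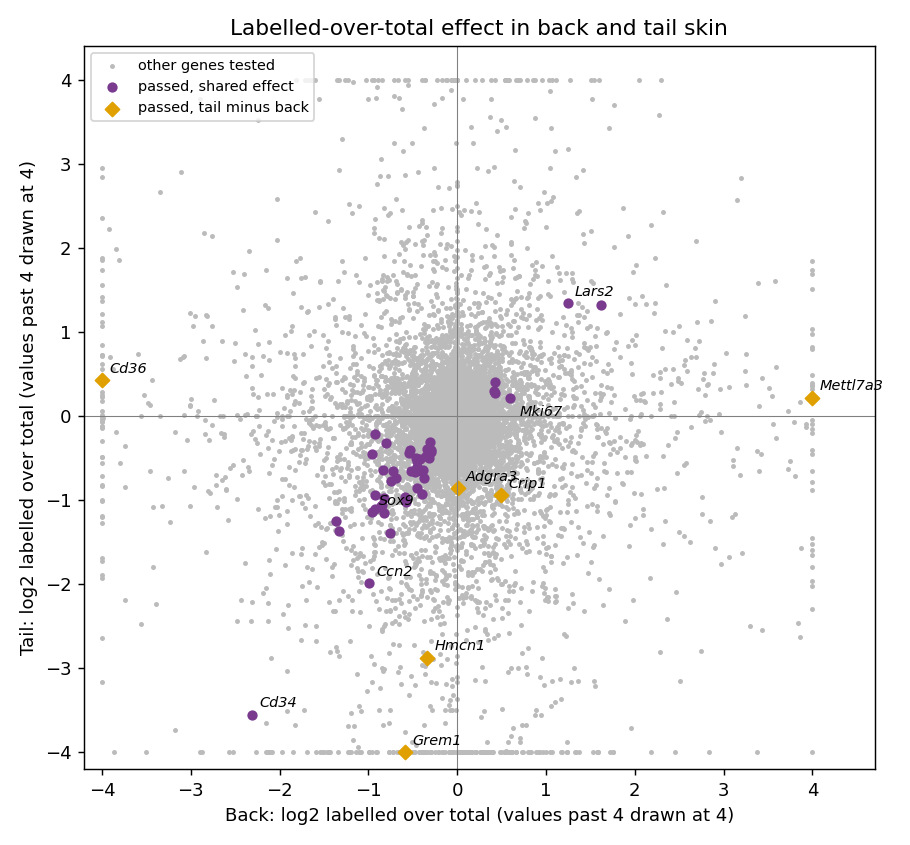
The labelled-over-total effect in back (horizontal axis, log2) and tail (vertical axis, log2) for all genes tested, with values past 4 in size drawn at 4. Genes that passed in the shared effect (purple) lie in the lower left or upper right corner, and Crip1 is among the 6 that passed for the difference between sites (yellow), at 0.49 in back and -0.94 in tail.

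The effect was then set against that in the other lines, whose labelled and total libraries are separate samples, in a fit of all 28 libraries with 14 pair terms and 17493 genes. Values of the Aspm line in this comparison come from that fit, as the mean of back and tail beside the Slc1a3 line, and so differ a little from those above. The 40 lower genes pointed the same way in the other lines for the most part. Their log2 value was below 0 for 38 in the Slc1a3 line (both sites), 38 in the K14 line (back) and 39 in the Dlx1 line (tail). Over all genes below 0 in the Aspm line the shares were 51.2%, 56.2% and 54.0%. Their median was -0.66 in the Aspm line beside -1.08 in the Slc1a3 line, -0.58 beside -0.66 in the K14 line (back) and -0.66 beside -0.99 in the Dlx1 line (tail). Of the 6 higher genes, 4, 3 and 5 were above 0 in those lines, beside 59.7%, 58.4% and 54.2% of all genes above 0 in the Aspm line. Lars2 was at 1.25 in back of the Aspm line beside -0.70 in the K14 line, and at 1.34 in tail beside 0.44 in the Dlx1 line. Its differences did not pass, at 1.95 (SE 1.12) against K14, 0.90 (SE 1.18) against Dlx1 and 1.73 (SE 0.79) against Slc1a3.

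Against the Slc1a3 line the effect differed for 41 genes (0.234%), 34 with the higher and 7 with the lower value in the Aspm line, and 6 of the 40 lower genes were among them. Fst had the smallest adjusted p of the 10 genes named by rule. It was lower in labelled cells of both lines, by 0.69 on the log2 scale in the Aspm line and by 2.95 in the Slc1a3 line (difference 2.27, SE 0.22, adjusted p = 8.5e-05). Dpysl3, a cytoskeletal protein, Stra6, a retinol transporter, Pappa, a protease of IGF-binding proteins, and Cacna2d2, a calcium channel subunit, had values of -0.55, -0.26, -0.64 and -0.62 in the Aspm line, and none had passed in the shared effect. In the Slc1a3 line they were at -2.95, -3.04, -3.77 and -4.64. Igfbp3, which binds insulin-like growth factors, was at -0.16 in the Aspm line and 0.84 in the Slc1a3 line (difference -0.99, SE 0.14, adjusted p = 0.0022). Without Slc1a3 back pair 4, whose total library had the fewest genes with a count of all 28 (14436), 114 genes passed, all 41 among them.

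Against the K14 line in back 0 genes passed by edgeR (0%), with 319 at an unadjusted p under 0.05, whereas DESeq2 called 8. Against the Dlx1 line in tail 0 genes passed (0%), with 345 at an unadjusted p under 0.05, and DESeq2 called 2. Each of those lines has 2 pairs, and a p that misses the threshold does not show that the effects are alike. Ccn2 was at -1.0 in back of the Aspm line beside -2.45 in the K14 line, and at -1.99 in tail beside -3.11 in the Dlx1 line. Sox9 was at -0.96 beside -1.13, and at -1.14 beside -1.51.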

How the data were processed

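RNA was sequenced from sorted epidermal cells, with poly(A) selection and a non-directional library kit, per the labels. The deposited files hold raw counts, 1 per gene and library, made by the authors. Per the submitters' processing notes, the tools were Trim Galore 0.6.0, cutadapt, FastQC, STAR 2.7.0e and DESeq2 1.26.0, with the mouse builds GRCm38 and mm10. The counting program, annotation and strand setting are not given in the sources used here. All 55536 gene identifiers matched GENCODE M21, from which coordinates were taken.

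The 10 libraries were scaled with TMM factors, and 16061 genes were left by filterByExpr (min.count 10). A robust quasi-likelihood model (edgeR 4.0.16, R 4.3.3) with 1 term per site and replicate number left 4 residual degrees of freedom for the shared effect and 3 for the sites. Comparisons between lines used all 28 libraries, 14 pair terms and 17493 genes. The fit was tested on simulated data. Figures were drawn with matplotlib 3.10.9 in Python 3.11.15, and the alternatives used DESeq2 1.42.0 and limma 3.58.1.

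The pairing rests on the replicate numbers, since the labels do not state that same-numbered libraries come from 1 skin. In 10444 genes (mean log2 CPM 2 or more) the deviations of same-numbered libraries from their groups gave r = 0.617 to 0.691 in back and 0.31 in tail, where both pairs give the same value by construction. Different numbers gave -0.6 to -0.067. Centring on group means ties these values to those of the same numbers, so they are no separate check. The pairing was accepted on the positive values of same-numbered libraries.

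The members and the gene lists were chosen with earlier results of these data known. Genes named by rule had to pass, to lie on the same side in all pairs, to reach 5 CPM in the higher fraction and to have no predicted name, up to 15 each way for the shared effect, 6 for a site and 5 for a difference. Where fewer than 10 passed in a direction, genes of lowest p that met the other conditions filled up to 10. List members of lowest p were added, up to 4 a list. Other genes in the text were chosen after their values were seen. Bounds against 3 counts cover counting error only. Alternatives were other scalings, no filter, DESeq2, limma-voom, a model that is not robust, no pair terms, all 28 libraries and leaving out each pair.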

Additional observations from a re-analysis of the deposited data

Results flagged for a closer look

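Effects that differed between tail and back by the test of the difference are given as tail minus back in log2. The fitted values were -9.51 for Grem1 and 8.40 for Cd36, each of which had 0 counts in the labelled libraries of a site, so that these 2 depend on the prior count and are no measure of size. The others were -4.60 for Mettl7a3, -2.54 for Hmcn1, -1.43 for Crip1 and -0.88 for Adgra3. With either tail pair left out 0 of the 6 passed.

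Effects that differed between the Aspm and Slc1a3 lines are given as Aspm minus Slc1a3 in log2. The higher values were 4.02 for Cacna2d2, 3.13 for Pappa, 2.78 for Stra6, 2.40 for Dpysl3 and 2.27 for Fst. The lower values were -1.06 for Npr3, -0.99 for Igfbp3, -0.81 for Ndufa4l2, -0.72 for Rassf5 and -0.60 for Dmpk. All 10 passed in the fit of 28 libraries. The groups hold 2 or 3 libraries each, too few to test for a single library that stands apart.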

How the results depend on the processing

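Among the single-gene results recomputed, the sign changed only for the shared value of Aspm, which ran from -0.09 to 0.12 and did not pass in any setting. For the shared effect (46), it was 0 with no replicate block, 75 with library totals, 235 with no filter on low counts, 139 by DESeq2, 74 by limma-voom, 8 with all 28 libraries and 12 to 295 with a pair left out, the highest without back pair 1. For back (14), it was 0 with no replicate block, 135 with no filter, 66 by DESeq2, 0 with all 28 libraries and 8 to 62 with a pair left out. For tail (19), it was 0, 42 with library totals, 178 with no filter, 85 by DESeq2, 36 by limma-voom, 6 with all 28 libraries and 3 to 105 with a pair left out. For tail minus back (6), it was 0 with no replicate block, 86 with no filter, 21 by DESeq2, 3 by limma-voom, 1 with the model that is not robust, 0 with all 28 libraries and 0 to 14 with a pair left out. For Aspm minus Slc1a3 (41), it was 6 with no replicate block, 164 with no filter, 111 by DESeq2 and 114 without Slc1a3 back pair 4. Against K14 (0), it was 33, 8 and 8, and against Dlx1 (0) 13, 2 and 1, in the same order without the block. The cause was not tested. The 8 shared genes that passed with all 28 libraries were Sox9, Ccn2, Timp2, Fzd7, Efnb2, Irx4, Fgfr1 and Trp53i11. Mki67 passed in the shared effect with no filter (log2 0.33, adjusted p = 0.0141). Scaling by library totals moved the median of all genes by -0.05. Genes with few counts, such as Cd34, Grem1 and Cd36, are limited by depth.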
